A study of Mus musculus with 8 samples.

Results

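The Ifi200 family is a cluster of genes on mouse chromosome 1 best known for proteins that sense DNA, and 9 of its genes are described here: Aim2, Ifi204, Ifi203, Mndal, Ifi206, Ifi213, Ifi208, Ifi209 and Ifi214. They were taken by gene symbol from a table of 29426 genes, and each of the 9 had a row. They were measured by RNA sequencing in mouse splenic CD8+ T cells after sorting, with 2 libraries in each of the groups mCre-MP, WT-MP, mCre-TN and WT-TN. TN and MP are the subset labels of a sort on CD44 and CD122, and the design text writes VM for the second subset. mCre and WT are the genotype labels. The series title ties the Cre animals to miR-29, a microRNA family, but the sources name neither the allele, the driver of Cre nor the strain. The spleens came from adult or neonatal mice, and the age behind each library is not given. The labels do not say that the 2 libraries of a group came from separate animals, so p-values measure the spread between libraries, which may be technical. Since cells were sequenced in bulk, fewer cells that express a gene and less RNA of it per cell cannot be told apart.

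Proteins of this family, also called PYHIN proteins, mostly combine a pyrin domain, through which they assemble with other proteins, with HIN-200 domains, which bind DNA. AIM2 senses double-stranded DNA in the cytosol and recruits the adaptor ASC and caspase-1 into an inflammasome. Mouse p204, the product of Ifi204, is regarded as a relative of human IFI16 and has been linked to the STING pathway, which leads to type I interferon. The family takes its name from its induction by interferon, which acts in part at promoter sequences called interferon-stimulated response elements (ISRE).

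Total counts per library lay between 13479586 and 30057658. The libraries followed their labels for the sorted cells. Cd8a, which encodes a chain of CD8, had means of 1790 CPM (counts scaled to the library's total) among mCre-MP libraries, 1730 CPM among WT-MP, 1680 CPM among mCre-TN and 1600 CPM among WT-TN libraries. Cd44 had 162 and 151 CPM in mCre-MP, against 16.5 and 13.1 in mCre-TN, and 144 and 138 CPM in WT-MP, against 15.4 and 14.3 in WT-TN. The genotype labels were not checked against a deleted gene, because the labels name none.

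The promoters of these genes are shown first, because most of them share a motif of interferon-responsive genes. RefSeq promoters (build GRCm38.p6, 250 bases before to 50 after an annotated start) were found for 8 of the 9 genes, in 10 entries. The letters GAAANNGAAA, an ISRE-type motif, were searched on both strands and stood in 7 of the 10 entries and in 6 of the 8 genes. Of all 32851 promoters of the same length, 3.44% held them. In 6 of the 7 entries the match was the same 10 bases, GAAATCGAAA, which only 16 of the 32851 promoters carried (0.0487%). The other 10 promoters with these bases included those of Ddx58, the RNA sensor RIG-I, and of Ifi207, a further gene of this family. The stretches around the site are given 5′ to 3′ on the gene's strand, with the 10 bases in capitals.
Ifi206: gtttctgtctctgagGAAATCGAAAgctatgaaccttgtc
Ifi213: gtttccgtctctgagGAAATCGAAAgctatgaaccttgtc
Ifi208: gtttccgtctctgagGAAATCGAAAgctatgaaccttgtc
Ifi214: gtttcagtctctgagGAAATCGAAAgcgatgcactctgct
Ifi209: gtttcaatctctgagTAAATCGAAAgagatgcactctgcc
Mndal: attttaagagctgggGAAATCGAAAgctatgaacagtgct
Ifi203: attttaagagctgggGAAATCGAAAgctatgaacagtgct

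The site began 40 bases before the annotated start in Ifi206, 73 in Ifi213, 58 in Ifi208 and 79 in Ifi214. It began 36 bases before the upstream start of Mndal and 35 before the downstream start of Ifi203. Ifi209 differed from the shared 10 bases by G1T, with positions counted from the first capital, and so had no match. The Aim2 promoter entry (chr1:173420354-173420653) held no match, and its nearest 10 bases differed at 4 positions (T5C, G7T, A8T and A10T). The GENCODE annotation begins Aim2 further upstream, at base 173350879, and no window there was searched. The downstream start of Mndal had another match, on the opposite strand, and the upstream start of Ifi203 had none. The letters TTCNNNGAA, the GAS-type motif, which reads alike on both strands, were in 0 of the 10 member promoters and in 8.3% of all promoters. These matches are letters in a window and do not show that a factor binds there.

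**Figure D1:**
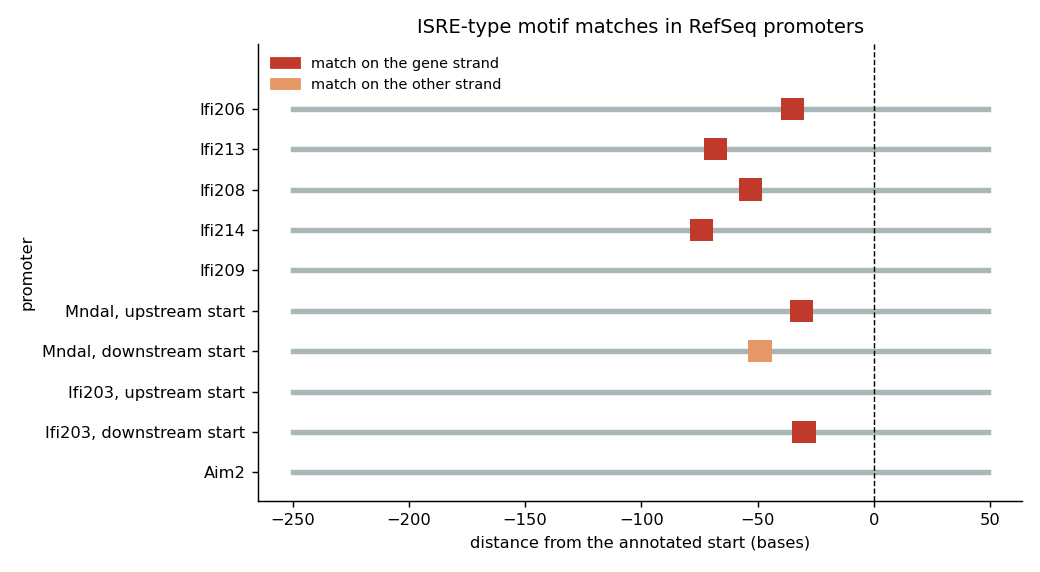
Position of matches to the ISRE-type motif in the 10 RefSeq promoters of 8 genes, as distance in bases from the annotated start; each grey line is a promoter and each block a match. Of the 10 promoters, 7 hold a match, all within the last 79 bases before the start, and Ifi209, Aim2 and the upstream start of Ifi203 hold none.

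The promoters, motif included, fell into near-copies. Of the bases that aligned, Ifi206 and Ifi208 had 279 of 281 identical and Ifi213 and Ifi208 282 of 285. Ifi206 and Ifi213 had 263 of 266, and Ifi214 and Ifi209 287 of 299. The upstream start of Mndal and the downstream start of Ifi203 had 282 of 289. Bases of the 300 that fell in gaps or past the ends are not compared. The promoters of Ifi213 (chr1:173599223-173599522, minus strand) and Ifi208 (chr1:173673415-173673714, plus strand) are printed in full, since Ifi213 rose in mCre and Ifi208 did not pass the test. The ISRE-type match is in capitals.
Ifi213: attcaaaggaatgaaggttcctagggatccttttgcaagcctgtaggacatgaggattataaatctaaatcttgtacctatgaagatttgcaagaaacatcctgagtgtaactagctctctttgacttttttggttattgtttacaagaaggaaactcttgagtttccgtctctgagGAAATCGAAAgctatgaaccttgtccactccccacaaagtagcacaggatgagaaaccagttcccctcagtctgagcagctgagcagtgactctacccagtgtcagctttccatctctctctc
Ifi208: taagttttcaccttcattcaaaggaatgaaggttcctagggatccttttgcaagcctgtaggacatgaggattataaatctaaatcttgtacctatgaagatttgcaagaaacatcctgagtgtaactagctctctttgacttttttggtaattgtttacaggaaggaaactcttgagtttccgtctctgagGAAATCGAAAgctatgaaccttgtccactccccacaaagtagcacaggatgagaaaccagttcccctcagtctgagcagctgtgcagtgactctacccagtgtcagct

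The members lie between bases 173350879 and 173942672 of chromosome 1 (GENCODE M21, GRCm38), and Aim2, Ifi209 and Ifi208 are on the plus strand. The neighbours of the cluster named here were silent or nearly so in these cells. Cadm3 had 7 counts over the 8 libraries and Ackr1 9, and Fcer1a and Mptx1 had 0. The family genes resemble each other, and reads that match several genes could have been counted for any of them, since the sources do not say how the authors treated such reads. Of the distinct 50-base stretches in the annotated transcripts of Ifi209, 33.7% also occurred in transcripts of other genes, with 33.4% in Ifi214. This share was 25.6% for Ifi206, 20.9% for Ifi208, 20% for Ifi204, 19.6% for Mndal, 15.6% for Ifi213, 14.6% for Ifi214 and 12.4% for Ifi203, and 0.742% for Aim2. Levels of all members but Aim2 are therefore uncertain. These shares do not say by how much, since that also depends on the levels of the genes that share the stretches. Mndal also shares 155 exon bases with other annotated genes on its strand, Ifi203 among them.

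Scaled to exon length, levels in the family spanned a wide range. Over the 8 libraries the mean was 68.2 CPM per kb of exon for Mndal, 62.3 for Ifi209, 60.2 for Ifi206 and 56.5 for Ifi203. Ifi208 followed at 24 CPM per kb, Ifi213 at 22.5, Aim2 at 12.9 and Ifi214 at 4.52, and Ifi204 was lowest at 0.227. Ranges over the libraries overlapped for neighbours within the first 4, for Ifi208 and Ifi213 and for Ifi213 and Aim2. Taken library by library, Mndal stood above Ifi209 in each of the 8, by as little as 57.9 against 57.8 in WT-MP replicate 2. The order of the other overlapping neighbours changed between libraries. Aim2 stood above Ifi214 and Ifi214 above Ifi204 in each of the 8 libraries. Summed over the 9 genes, the level was 1702 and 1489 CPM in mCre-MP, against 1249 and 1228 CPM in WT-MP, and 1454 and 1471 CPM in mCre-TN, against 1245 and 1311 CPM in WT-TN.

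**Figure D2:**
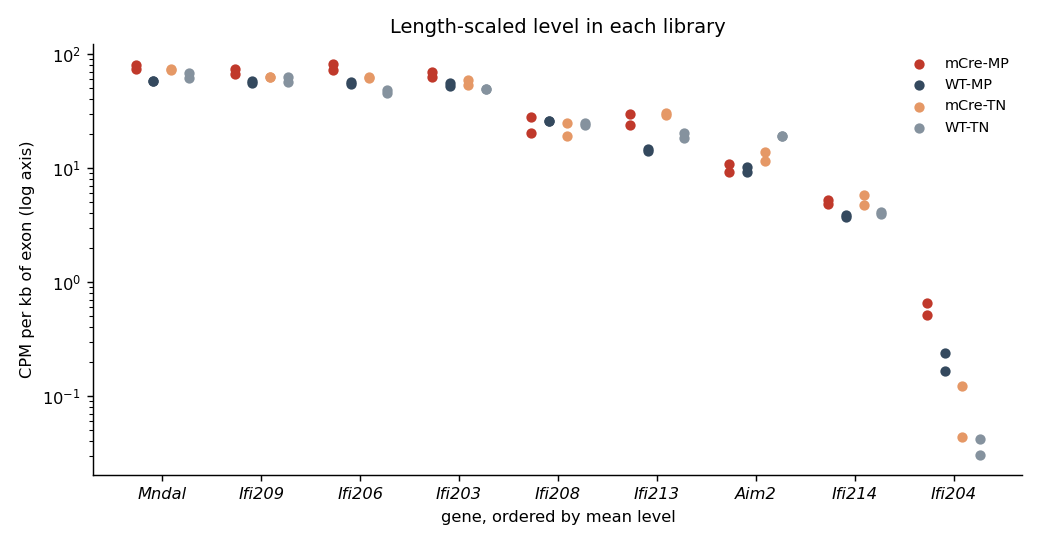
Level of each gene in each library, as CPM per kb of annotated exon on a log axis, with genes ordered by their mean over the 8 libraries; each point is a library. Mndal, Ifi209, Ifi206 and Ifi203 share the top range, and Ifi204, at a mean of 0.227, lies far below the rest.

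The design sets mCre against WT within each subset. In MP cells, 7 of the 9 genes rose in mCre against WT, 0 fell and 2 did not pass the test (edgeR's quasi-likelihood test, adjusted p under 0.05 over 12313 genes). Of all genes tested, 2.08% were higher, 1.97% were lower and 4.04% were called in either direction. In TN cells, 3 of the 9 genes rose, 1 fell and 5 did not pass, beside 1.55% of all genes higher, 1.92% lower and 3.47% called. The median log2 fold change over the 9 genes was 0.42 in MP and 0.18 in TN, and that of all genes was 0 in both. The mCre libraries lay above both WT libraries for 7 genes in MP and below them for 0, where 24.1% of all genes lay above, 24.8% below and 48.9% either way. In TN they lay above for 6 genes and below for 1, against 25.2%, 20.6% and 45.8% of all genes. Without WT-MP replicate 1, WT-MP replicate 2 or mCre-MP replicate 1 the number called in MP was 3. Without WT-TN replicate 1, WT-TN replicate 2 or mCre-TN replicate 2 the count in TN was 2.

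**Figure D3:**
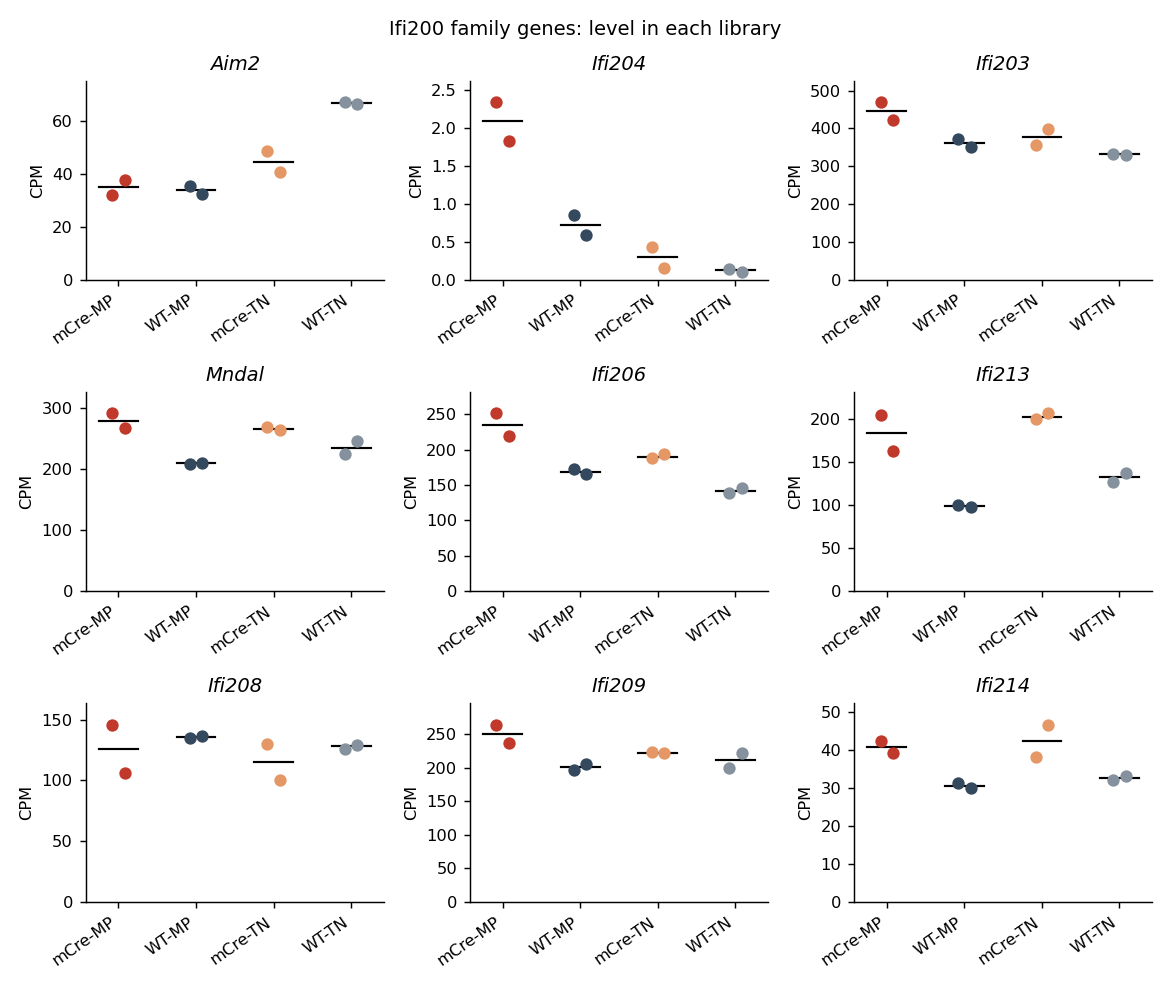
Level of each of the 9 genes in each library in CPM, with a panel for each gene; points are libraries and lines are group means (n = 2). Ifi213 and Ifi206 stand higher in mCre than in WT in both subsets, and Aim2 is highest in WT-TN, at 67.1 and 66.6 CPM.

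Ifi213, Ifi206 and Ifi208 have near-identical promoters, and the first pair rose in mCre while Ifi208 did not pass the test. Ifi213, which RefSeq also lists under the pyrin-domain name Pydc4, had 204 and 162 CPM in mCre-MP, against 100 and 97.2 CPM in WT-MP. In TN it had 199 and 206 CPM in mCre, against 126 and 137 CPM in WT. The genotypes did not overlap in either subset. Its log2 fold change was 0.89 in MP (SE 0.10, adjusted p = 0.00127) and 0.60 in TN (SE 0.10, adjusted p = 0.0118), by edgeR. Ifi206 had 251 and 219 CPM in mCre-MP, against 172 and 165 CPM in WT-MP, and 188 and 193 CPM in mCre-TN, against 138 and 146 CPM in WT-TN. Within each subset the mCre libraries again stood above the WT libraries. It rose by 0.48 in MP (SE 0.06, adjusted p = 8.78e-05) and by 0.41 in TN (SE 0.06, adjusted p = 0.000638) on the log2 scale, by edgeR. Ifi206 was called in both subsets under each of the 16 alternatives run, with values of 0.37 to 0.58 in MP and 0.37 to 0.45 in TN. For Ifi213 the TN call was lost without WT-TN replicate 1 (adjusted p = 0.132), WT-TN replicate 2 (0.114), mCre-TN replicate 2 (0.0923), WT-MP replicate 1 (0.0658) or WT-MP replicate 2 (0.0675), with edgeR. Its MP call was lost without WT-MP replicate 1 (0.0527) or replicate 2 (0.0755).

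Ifi208, listed by RefSeq also as Pydc3, had 146 and 106 CPM in mCre-MP, against 135 and 137 CPM in WT-MP, and 130 and 100 CPM in mCre-TN, against 126 and 129 CPM in WT-TN. The WT libraries lay close together, while replicate 2 of each mCre group was low and replicate 1 was not. The log2 fold change was −0.11 in MP (95% interval −0.65 to 0.42) and −0.15 in TN (−0.70 to 0.39). These intervals do not show that Ifi208 stayed the same, and they lie below the point value of Ifi213 in both subsets. The difference between the 2 genes was not itself tested.

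Ifi214 and Ifi209, the next pair of near-identical promoters, differ by 1 base of the shared site, and many stretches of their transcripts coincide, as given above. Ifi214 had 42.4 and 39.2 CPM in mCre-MP, against 31.3 and 29.9 CPM in WT-MP, and 38.3 and 46.7 CPM in mCre-TN, against 32 and 33.1 CPM in WT-TN. Each mCre library was above each WT library of its subset. Ifi214 rose in MP (log2 fold change 0.42, SE 0.09, adjusted p = 0.0105) and in TN (0.36, SE 0.09, adjusted p = 0.0344) by edgeR. Ifi209, also named Pyhin1, had 264 and 236 CPM in mCre-MP, against 196 and 205 CPM in WT-MP, and 223 and 222 CPM in mCre-TN, against 200 and 222 CPM in WT-TN. It rose in MP (0.32, SE 0.06, adjusted p = 0.00359) by edgeR, whereas in TN the libraries overlapped and the value was 0.06 (95% interval −0.07 to 0.18). The Ifi214 call in TN was lost with DESeq2 (adjusted p = 0.0602), with limma-voom (0.0662) and without WT-TN replicate 1 (0.141), WT-TN replicate 2 (0.144) or mCre-TN replicate 2 (0.349). The MP calls were lost without WT-MP replicate 1 (Ifi214 0.0554, Ifi209 0.0613) or mCre-MP replicate 1 (0.108 and 0.101), and that of Ifi214 also without WT-MP replicate 2 (0.13).

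Ifi203 and Mndal, the most counted members, form the last pair, the upstream promoter of Mndal and the downstream promoter of Ifi203 being near-copies. Mndal had 291 and 267 CPM in mCre-MP, against 208 and 210 CPM in WT-MP, and 269 and 264 CPM in mCre-TN, against 224 and 246 CPM in WT-TN. Ifi203 had 469 and 421 CPM in mCre-MP, against 371 and 351 CPM in WT-MP, and 357 and 399 CPM in mCre-TN, against 332 and 331 CPM in WT-TN. For both genes the mCre libraries stood above the WT libraries in each subset, but only the MP difference passed the test. In MP, Mndal rose by 0.42 (SE 0.06, adjusted p = 0.000139) and Ifi203 by 0.30 (SE 0.06, adjusted p = 0.00782) on the log2 scale, by edgeR. In TN the values were 0.17 (adjusted p = 0.12) and 0.18 (adjusted p = 0.14), and both passed without the expression filter (0.0465 and 0.0235), by edgeR. The Ifi203 call in MP was lost without mCre-MP replicate 1 (adjusted p = 0.151) or WT-MP replicate 2 (0.14).

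Aim2, the inflammasome sensor, was the only one of the 9 genes to fall in mCre, and did so in TN cells. It had 48.6 and 40.6 CPM in mCre-TN, against 67.1 and 66.6 CPM in WT-TN, and 31.9 and 37.9 CPM in mCre-MP, against 35.4 and 32.5 CPM in WT-MP. The TN groups stood apart and the MP groups overlapped. The log2 fold change was −0.59 in TN (SE 0.09, adjusted p = 0.00114, edgeR) and kept its call under each of the 16 alternatives run (−0.72 to −0.48). In MP it was 0.05 (95% interval −0.15 to 0.25).

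Ifi204 was close to the limit of these libraries. Its counts were 43 and 45 in mCre-MP, against 20 and 13 in WT-MP, and 13 and 3 in mCre-TN, against 2 and 2 in WT-TN. It passed the expression filter through its MP libraries. Relative to total counts, mCre-MP had 2.81 times the level of WT-MP (counting interval 1.87 to 4.33) and mCre-TN 2.6 times that of WT-TN (0.838 to 10.7). These intervals cover counting error only. With edgeR it rose in MP (log2 fold change 1.51, SE 0.42, adjusted p = 0.0477). That call was lost with DESeq2 (adjusted p = 0.226) and without WT-MP replicate 1 (0.135), WT-MP replicate 2 (0.327), mCre-MP replicate 1 (0.312) or mCre-MP replicate 2 (0.155). Macrophages are known to express Ifi204, so myeloid markers are given beside it. The 14 markers summed to 37.4 and 39 CPM in mCre-MP, against 63.5 and 42.4 CPM in WT-MP, and 36.8 and 33.6 CPM in mCre-TN, against 55.7 and 43.5 CPM in WT-TN, and none was at 0 in a group. Of the 13 tested, 0 rose and 1 fell in mCre-MP, and 0 rose and 3 fell in mCre-TN, C1qa, Csf1r and Vcam1. The median log2 fold change of the markers was −0.81 in MP and −0.94 in TN. Among 6 NK cell markers, 0 rose and 1 fell in mCre-MP (Klre1, −1.58, adjusted p = 0.000618, edgeR), and 0 were called in mCre-TN. The part of such cells in the genotype differences was not tested.

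**Figure D4:**
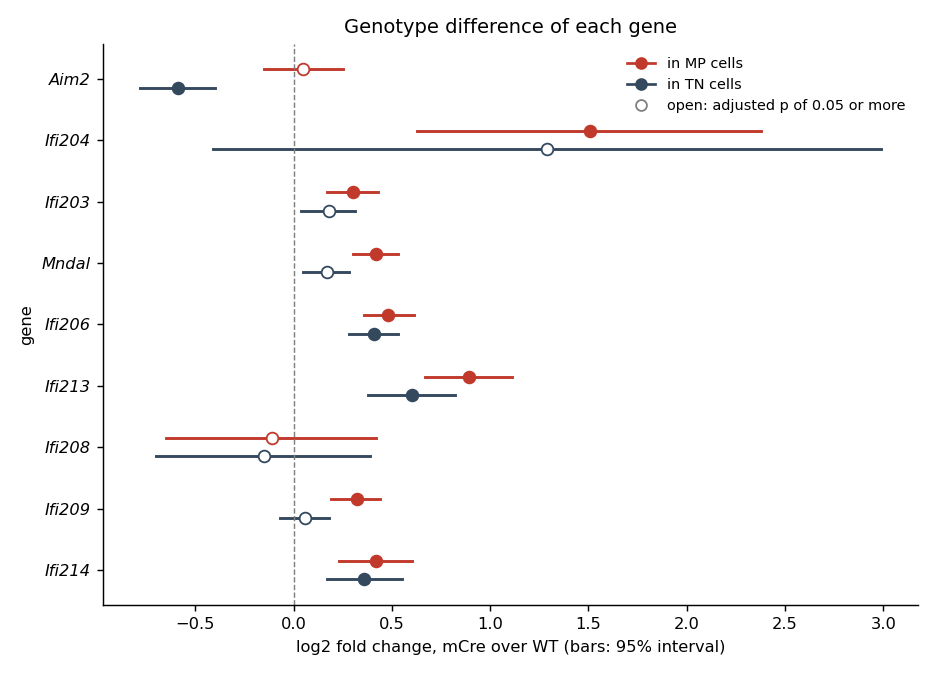
Log2 fold change of mCre over WT for each gene in MP and in TN cells, with 95% intervals from edgeR; filled points passed an adjusted p of 0.05. Ifi213 shows 0.89 in MP and 0.60 in TN, Aim2 shows −0.59 in TN and 0.05 in MP, and the interval of Ifi208 spans 0 in both subsets.

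With subset as a covariate and all 8 libraries in the comparison of mCre with WT, 6 of the 9 genes rose and 0 fell, beside 5.06% of all genes higher, 5.97% lower and 11% called. Ifi206 (0.45), Ifi214 (0.39), Mndal (0.29), Ifi203 (0.24), Ifi213 (0.75) and Ifi204 (1.47) rose on the log2 scale. Ifi209 had 0.19 (adjusted p = 0.0568), Ifi208 −0.13 and Aim2 −0.29 (adjusted p = 0.349), by edgeR. Ifi204 lost its call without mCre-MP replicate 1 (0.0922) or WT-MP replicate 2 (0.0891), and Ifi209 passed with DESeq2 (0.0129), with total counts as the scaling (0.0392), without the expression filter (4.75e-05) and without WT-TN replicate 2 (0.0021) or mCre-TN replicate 1 (0.038).

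Between the subsets, family members moved in both directions. Ifi204 is left out of the counts between subsets, since the expression filter kept it only through its MP libraries. In mCre, 3 of the other 8 genes rose in MP against TN and 1 fell, beside 17% of all genes higher, 15.5% lower and 32.5% called. In WT, 1 rose and 3 fell, beside 16.2% higher, 15.6% lower and 31.7% called. Being called was thus common in this contrast. In mCre, MP libraries lay above both TN libraries for 3 of these 8 genes and below them for 1, beside 29.5% and 37.5% of all genes and 67% either way. In WT they lay above for 3 and below for 4, beside 30%, 34.1% and 64.1%. Several of these calls were lost when a library was left out, as given by gene below. The mCre comparisons and the WT comparisons use the same libraries as the genotype comparisons above, so that a high WT-TN value, for example, enters both.

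Aim2 fell in MP against TN in both genotypes, by 0.32 in mCre (SE 0.09, adjusted p = 0.0131) and by 0.96 in WT (SE 0.09, adjusted p = 3.68e-07) on the log2 scale, with edgeR. In WT this was a fall to 35.4 and 32.5 CPM in MP, against 67.1 and 66.6 CPM in TN, and it was called under each of the 16 alternatives. In mCre the call was lost without mCre-TN replicate 1 (adjusted p = 0.241) or mCre-MP replicate 1 (0.152). Ifi206 rose in both genotypes under each alternative run, by 0.34 in mCre (SE 0.06, adjusted p = 0.000212) and by 0.26 in WT (SE 0.06, adjusted p = 0.00308). Ifi204 had 88 counts over both mCre-MP libraries, against 16 over both mCre-TN libraries, a ratio of 6.33 (counting interval 3.69 to 11.5), and 33 counts in WT-MP, against 4 in WT-TN, a ratio of 5.84 (2.08 to 22.7). Since Ifi204 was kept for testing only through its MP libraries, these ratios are a description, and no p is given for this contrast.

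Ifi203 (0.27, adjusted p = 0.00262) and Ifi209 (0.20, adjusted p = 0.0131) rose in MP of mCre by edgeR. Their values in WT were 0.14 (adjusted p = 0.101, and 0.0194 without the expression filter) and −0.06 (0.511). The mCre calls of both were lost without mCre-TN replicate 1 (0.0683 and 0.0668) or mCre-MP replicate 1 (0.069 and 0.244), and that of Ifi209 also without mCre-TN replicate 2 (0.0585). In WT, Ifi213 fell by 0.40 (SE 0.10, adjusted p = 0.0135) and Mndal by 0.16 (SE 0.06, adjusted p = 0.0419) on the log2 scale, against mCre values of −0.12 and 0.10, neither of them called. In mCre, Ifi213 was called with mCre-MP replicate 1 left out (−0.29, adjusted p = 0.00414). The Ifi213 call in WT was lost when WT-TN replicate 1 (0.0669), WT-TN replicate 2 (0.154), WT-MP replicate 1 (0.107) or WT-MP replicate 2 (0.144) was left out. The Mndal call was held by 7 of the 16 alternatives, and was lost with DESeq2 (0.0669), with only the groups compared (0.0648) and without the expression filter (0.0584). It was also lost without WT-TN replicate 2 (0.43), WT-MP replicate 1 (0.163), WT-MP replicate 2 (0.132), mCre-TN replicate 1 (0.0696), mCre-TN replicate 2 (0.0757) or mCre-MP replicate 1 (0.0622). Ifi214 and Ifi208 did not pass in either genotype. Since Ncr1, Klrb1c, Klra8 and Klre1 were kept for testing only through their MP libraries, NK cell markers are given by level only. They summed to 10.5 and 14.3 CPM in mCre-MP, against 2.3 and 1.24 in mCre-TN, and to 22.1 and 26.6 CPM in WT-MP, against 2.67 and 2.42 in WT-TN, with Ncr1, Klrb1c and Klra8 at 0 in both TN groups. Of the 8 tested dendritic cell markers, 1, Itgax, rose in MP in both genotypes and 7 were not called. The median log2 fold change of these markers was 0.07 in mCre and −0.14 in WT. Of the 5 tested B cell markers, 4 were not called in either genotype. The other, Cd22, was kept for testing only through its MP libraries. Its level was 5.07 and 4.76 CPM in mCre-MP, against 0.0998 and 0.0518 CPM in mCre-TN. In WT the Cd22 level was 7.23 and 5.12 CPM in MP, against 0.0742 and 0.269 CPM in TN. Of the 13 tested myeloid markers, 1 rose and 0 fell in each genotype. It was Fcgr3, with 3.71 and 3.22 CPM in mCre-MP, against 1.36 and 1.86 CPM in mCre-TN, and 4.02 and 4.39 CPM in WT-MP, against 1.63 and 1.61 CPM in WT-TN. Their part in the subset differences was not tested.

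**Figure D5:**
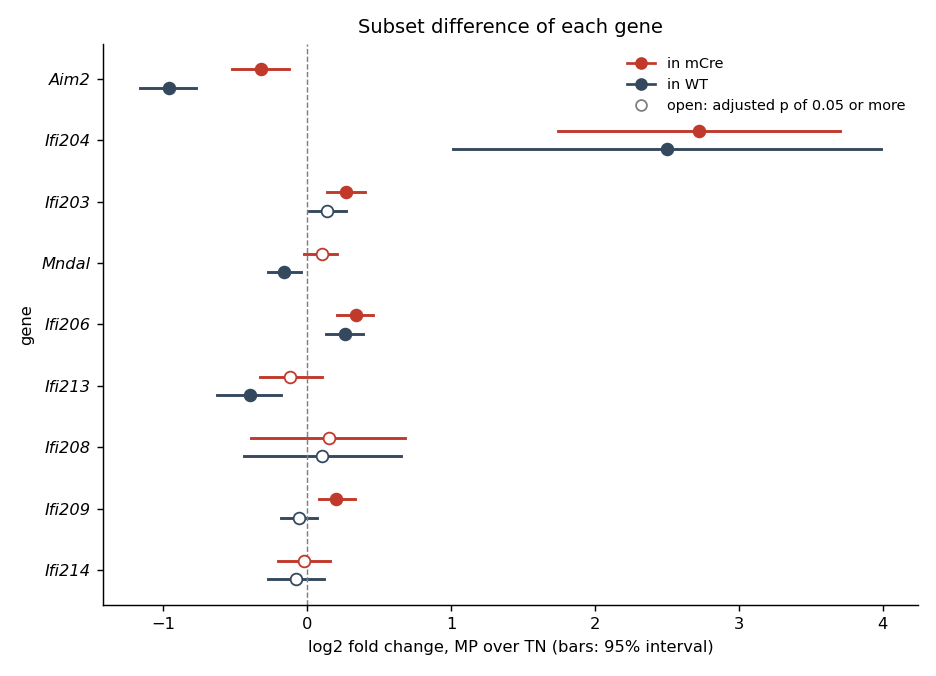
Log2 fold change of MP over TN for each gene in mCre and in WT, with 95% intervals from edgeR; filled points passed an adjusted p of 0.05. Aim2 lies below 0 in both genotypes (−0.32 in mCre and −0.96 in WT), and Ifi206 lies above 0 in both. Ifi204 is drawn as a description, since it was kept for testing only through its MP libraries. Its filled points are not read as a result.

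Whether the genotype effect differs between subsets was tested by the interaction, with the difference of mCre minus WT in MP less that in TN. By edgeR, 0 of the 9 genes were called, beside 0.13% of all genes (0.0487% higher and 0.0812% lower), and 3 had an unadjusted p under 0.05, beside 5.92% of all genes. DESeq2 called 1 of the 9 genes and limma-voom 0. Aim2 had the largest value of the 9, 0.64 (SE 0.13, unadjusted p = 0.000151, adjusted p = 0.0845). Aim2 passed with DESeq2 (adjusted p = 0.0319), without the expression filter (3.12e-06) and without mCre-TN replicate 1 (0.0195) or mCre-MP replicate 1 (0.0112), and its values over the 15 alternatives ran from 0.50 to 0.77. Ifi209 had 0.26 (unadjusted p = 0.00632) and Mndal 0.25 (unadjusted p = 0.00487), with adjusted p = 0.556 and 0.535.

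The remaining family genes in the table were near silence. Ifi202b, whose product is known to inhibit AIM2, was counted 0 times in every library. With 3 counts per group as the limit, its level could reach 0.0699 CPM among mCre-MP libraries, 0.0663 CPM among WT-MP, 0.0608 CPM among mCre-TN and 0.0936 CPM among WT-TN libraries. Ifi205 had 4 to 24 counts per library. Ifi207 had 0 to 15 counts and Ifi211 0 to 5 counts per library. For Ifi207, whose promoter carries the shared 10 bases, no difference was detectable at this depth (adjusted p = 0.627 in MP and 0.411 in TN, edgeR). Ddx58, with the same bases and also on the list of interferon-induced genes, rose in mCre in MP (0.42, adjusted p = 0.00044) and in TN (0.29, adjusted p = 0.0125) by edgeR. Of the other tested genes with these bases, Ripk1, Serpinb6a, Pnrc1 and Parp11, none was called by genotype in either subset. Among the 356 tested non-member genes with the ISRE-type motif in a promoter, 5.06% were higher and 1.4% lower in mCre-MP, and 3.09% and 1.4% in mCre-TN. Among the 9149 with a promoter and no such motif, the shares were 1.96% and 1.96% in MP and 1.3% and 1.84% in TN.

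Genes further along chromosome 1 were read beside the cluster. Within 5 megabases on either side, 61 other genes were tested, 47 before the cluster and 14 after it. In MP, 3 were higher and 1 lower in mCre, with a median log2 fold change of 0.04, and in TN 2 were higher and 1 lower, with a median of 0. Of all genes, 4.04% were called in MP and 3.47% in TN. In MP, Slamf1 (1.09, adjusted p = 0.0217), Slamf6 (0.33, 0.00873) and Desi2 (0.26, 0.0461) rose and Igsf8 fell (−0.63, 0.017), by edgeR. In TN, Atf6 (0.74, adjusted p = 3.16e-05) and Pigm (0.27, 0.00567) rose and Igsf8 fell (−0.65, 0.0244). The value of Atf6 was above that of any member called higher in TN.

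The lists of the pathways around the sensors are read beside the 4.04% of all genes called between genotypes in MP and the 3.47% called in TN. Of 10 tested genes of the inflammasome list, 1 rose in mCre-MP (Casp8, 0.19, adjusted p = 0.0339) and none in mCre-TN, and none fell. Pycard, which encodes ASC, had 66.8 and 67.1 CPM in mCre-MP, against 69.4 and 67.4 in WT-MP, and Gsdmd, which encodes the pore-forming gasdermin D, had 70.6 and 74.3 CPM in mCre-MP, against 70.2 and 72.1 CPM in WT-MP. Casp1, which encodes caspase-1, had 9.81 and 11.6 CPM in mCre-MP, against 7.74 and 7.63 CPM in WT-MP. Pycard fell in MP against TN, by 0.20 in mCre (adjusted p = 0.0113) and by 0.24 in WT (adjusted p = 0.00346) on the log2 scale. Of 14 tested genes of the cGAS-STING list, 1 rose and 0 fell in mCre-MP, and 1 rose and 1 fell (Rnaseh2c, −0.33, adjusted p = 0.0397) in mCre-TN. The riser in both was Zbp1, a sensor of Z-form nucleic acids (0.88 in MP, adjusted p = 0.00312, and 0.77 in TN, adjusted p = 0.00775). Tmem173, which encodes STING, had 108 and 101 CPM in mCre-MP, against 103 and 106 CPM in WT-MP, and 117 and 117 CPM in mCre-TN, against 119 and 123 CPM in WT-TN. Cgas, the DNA sensor upstream of it, rose in MP against TN in mCre (0.74, adjusted p = 1.41e-05) and in WT (0.61, adjusted p = 0.000172).

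Of 18 tested genes of interferon signalling, 4 rose and 0 fell in mCre-MP, and 3 rose and 1 fell in mCre-TN (medians 0.16 and 0.18). Irf9 rose by 0.46 in MP (adjusted p = 0.000428) and 0.31 in TN (0.0142), and Stat2 by 0.31 (0.0101) and 0.33 (0.00792). Usp18, an induced brake on the receptor, rose by 1.13 in MP (adjusted p = 0.00436) and 1.01 in TN (0.00804), and Irf7 by 0.84 in MP (0.0425). Of 42 tested interferon-induced genes, 19 rose and 0 fell in mCre-MP and 14 rose and 1 fell in mCre-TN, with a median of 0.65 in each, beside a median of 0 for all genes. This list thus had a larger median than the Ifi200 family in both subsets. Its summed level was 6157 and 5706 CPM in mCre-MP, against 4440 and 4512 CPM in WT-MP, and 4454 and 5546 CPM in mCre-TN, against 3527 and 3899 CPM in WT-TN. The part of interferon in the differences of the Ifi200 family was not tested.

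By likeness of log2 CPM over the 8 libraries, the genes nearest to Mndal were Isg20, an interferon-induced exonuclease (r = 0.977), Gpt2 (0.971), Ears2 (0.965), Trip12 (0.964) and H2-T23 (0.952). Nearest to Ifi203 were Smarcd1 (0.999), Gadd45g (0.97), Tmed7 (0.97), Lif (0.968) and Gfpt1 (0.968), and to Ifi209 Psmg1 (0.958), Sec14l2 (0.957), Zcchc3 (0.951), Ears2 (0.945) and Phtf1 (0.941). Spearman's rho of these pairs lay between 0.881 and 1. The 8 libraries fall into 4 groups, and the likest of 12313 genes were picked, so these values are a description. Within the family, Ifi203 and Ifi206 had r = 0.955, Mndal and Ifi213 0.939, Ifi213 and Ifi214 0.921 and Mndal and Ifi209 0.903. Ifi208 had values between −0.514 and 0.296 with the other members, and Aim2 between −0.76 and −0.0336. All of these values come from the same 8 libraries and the same scaling, and some of the genes have transcript stretches in common.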

How the data were processed

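Values are the authors' deposited counts of reads for each gene, not normalized. Trim Galore, HISAT2 and featureCounts were used with build mm10, per the submitters' processing notes. The sources used here give no version, annotation, strand setting or treatment of multi-mapping reads. Members and gene lists were chosen with earlier results of these data known. Counts were tested with edgeR 4.0.16 (R 4.3.3): TMM scaling, edgeR's expression filter (12313 genes kept), robust quasi-likelihood F test, a mean for each of 4 groups over all 8 libraries, or genotype with subset as covariate, two-sided, Benjamini-Hochberg adjustment over all genes. SE is the log2 fold change divided by the root of F. CPM scale a count to the library's total in the table; log2 CPM used a prior count of 2. Replicates differed by more than sampling noise (chi-square per degree of freedom 4.22 to 6.31). Alternatives were 2 other scalings, 2 other filters, DESeq2 1.42.0, limma-voom 3.58.1, only the groups compared, the replicate block and each library left out. The tests were tried on simulated data. Named are all members, up to 4 called genes of smallest p per list, and, by likeness, the 5 nearest named genes to each of the 3 members of highest CPM. Flanking genes, genes sharing the promoter motif, Gsdmd, Casp1, Tmem173 and Cd8a were chosen after values were seen. Lengths and coordinates are from GENCODE M21 (1-based), promoters from RefSeq GRCm38.p6. A count of 0 allows 3 counts over a group. Intervals are at 95%. Markers of B cells, dendritic cells and CD8 T cells had 0 genes called between genotypes within a subset.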

Additional observations from a re-analysis of the deposited data

How the results depend on the processing

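For mCre against WT, the number of members called was compared with the edgeR count reported. It kept within 1.5 times of that under every alternative with all 8 libraries, DESeq2 and limma-voom included, except in the interaction. There it was 1 without the expression filter and 1 with DESeq2, against 0 in the fit reported, and the gene was Aim2 in both. With single libraries left out, the count for mCre against WT in TN ranged from 2 to 4 (4 reported). For mCre against WT in MP it ranged from 3 to 7 (7 reported). It ranged from 0 to 1 for the interaction (0 reported) and from 5 to 7 across subsets (6 reported). Counts between subsets are left out here, since they would include Ifi204. A library left out lowers the number of samples, and a group left with 1 library is assumed to vary like the others. With the replicate number as a block, 4 members were called for mCre against WT in TN, 7 in MP, 0 in the interaction and 6 across subsets. The block changed no call of a member. Deviations from group means correlated by −0.0446 to 0.109 between same-numbered libraries, and the labels do not say what a number shares. No called value changed sign. Values without a call that changed sign with a library left out were those of Ifi209 for MP against TN in WT (−0.12 to 0.03) and for mCre against WT in TN (−0.01 to 0.14). For MP against TN in mCre they were Ifi208 (−0.09 to 0.36), Ifi214 (−0.17 to 0.13) and Ifi213 (−0.29 to 0.04). For mCre against WT they were Ifi208 in TN (−0.35 to 0.01), Ifi208 in MP (−0.36 to 0.10) and Aim2 in MP (−0.09 to 0.15). In the interaction they were Ifi214 (−0.10 to 0.19), Ifi206 (−0.04 to 0.17), Ifi208 (−0.21 to 0.25) and Ifi204 (−0.23 to 1.21). The cause was not tested. Ifi204 was measured with 2 to 45 counts per library, and only the stricter filter left it out in each comparison.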
